A study of Oryza sativa with 3 samples.

Results

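Young panicles of the rice mutant ld-1 were compared with those of wild type for mature miRNAs, in 1 library of each genotype. Of the 367 mature sequences counted (called rows here), 109 had 30 or more reads summed over the 3 libraries of the series and were compared. Both groups were japonica rice (Oryza sativa) with no treatment, germinated on MS medium and grown on in soil. The other mutant library, ld-2, enters only the read minimum, the scaling and the check on miR172b. Per the series title, the spikelet without lodicules traces to a mutated miR172b. The labels do not say whether a panicle sample came from 1 plant or several, nor whether it grew in the greenhouse or the field. The ld-1 library held 140807 miRNA reads and the wild type library 116818. After scaling, 1 read stood for 7.94 RPM (reads scaled to library size) in ld-1 and 8.37 RPM in wild type. The tested rows held 99.7% of the reads in each. With no replicate, each ratio below carries a 95% interval for counting error only, and no difference was set against the spread between plants.

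Plant miRNAs are mostly cut from stem-loop precursors by DCL1 as a duplex, of which one strand is loaded into AGO1 and guides the cleavage or translational repression of target transcripts, while the other strand is mostly lost. Many families target transcription factors that set the identity and timing of organs. In grasses miR172 represses AP2-like factors, which act in the change from spikelet to floret and in the identity of lodicules, which swell at flowering and push the floret open.

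The label was checked first on miR172b, whose sequence stands below with the other rows of its family that had reads. Bases 2 to 8, the seed, are in capitals, and letters are as deposited, with T for U.
miR172b: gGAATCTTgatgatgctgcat
miR172a//miR172d: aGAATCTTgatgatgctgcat
miR172d, second sequence: gCAGCACCatcaagattcac

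A row was called when it differed by 2-fold or more and its interval excluded a ratio of 1, which held for 11 rows (10.1% of those tested). The 7 called higher in ld-1 are shown because 5 of them belong to copper-related families, which had 5 of the 109 tested rows. Of those 5, miR398b reached the read minimum only through its ld-1 reads. The others are both strands of miR528 and of miR408, so they are not separate observations.
miR398b: tGTGTTCTcaggtcgcccctg
miR528: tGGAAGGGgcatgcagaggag
miR528, second sequence: cCTGTGCTtgcctcttccatt
miR408: cTGCACTGcctcttccctggc
miR408, second sequence: cAGGGATGaggcagagcatgg
miR164c: tGGAGAAGcagggtacgtgca
miR2878: tACATGTAtaaaattctgaggatg

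The rows called lower by the same rule were miR172b and 3 others, shown with their seeds so that relatives named later can be set beside them.
miR1861b//miR1861f//miR1861i//miR1861l: cGATCTTGaggcaggaactgag
miR2118g: tTCCTAATgcctcccattccta
miR1873: tCAACATGgtatcagagctggaag

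The most abundant rows of families that shifted by less than 2-fold are shown because they carry most of the reads.
miR159a//miR159b: tTTGGATTgaagggagctctg
miR166a and its shared copies: tCGGACCAggcttcattcccc
miR167a//miR167b//miR167c: tGAAGCTGccagcatgatcta
miR1859: tTTCCTATgacgtccattccaa
miR168a: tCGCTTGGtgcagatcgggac
miR535: tGACAACGagagagagcacgc
miR319b: tTGGACTGaagggtgctccc

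In miR172b, ld-1 had 2 reads and wild type 298. The ld-2 library had 1 read, so the check tells ld-1 from wild type but not from ld-2. The log2 ratio of ld-1 over wild type was -7.30 (95% interval -10.35 to -5.43). Its nearest relative, miR172a//miR172d, from which miR172b differs by A1G (counted from the 5′ end), had 603 reads in ld-1 and 522 in wild type, an interval that included 0 (log2 0.13, -0.04 to 0.30). Left without miR172b, the family had 683 reads in ld-1 and 637 in wild type, a log2 ratio of 0.02 (-0.13 to 0.18) that was -0.17 with RPM of all miRNA reads. Taken with miR172b, the family sum was 685 and 935 reads, or 1.44-fold lower in ld-1 (log2 -0.52, -0.67 to -0.38). Counted by the seed GAATCTT that miR172b shares with miR172a//miR172d, the level was 605 reads in ld-1 and 820 in wild type (log2 -0.51, -0.67 to -0.36). As counted by the deposited sequences, the seed class of the family stood modestly below wild type, while its miR172b row was close to empty. The mismatches allowed in counting are not stated, so reads of an altered mature miR172b may be missing from these sums.

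Across the 109 tested rows the quartiles of the log2 ratio were -0.35 and 0.27, with a median of -0.06. Within 1.5-fold of wild type were 82 rows, and within 2-fold 97. Above 0 were 53 rows and below 0 were 56. The share called 2-fold higher was 6.42% (7 rows) and the share called 2-fold lower was 3.67% (4 rows). A further 15 rows (13.8%) were modestly higher and 17 (15.6%) modestly lower, meaning that the interval excluded a ratio of 1 while the ratio stayed under 2-fold. In all, the interval excluded 1 in 39.4% of rows, so that an excluded 1 is a common event in these libraries and depends on read number. The median half-width of the interval was 1.19 log2 units in the 26 rows with up to 50 reads over ld-1 and wild type, and 0.14 in the 21 rows with over 1000.

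**Figure D1:**
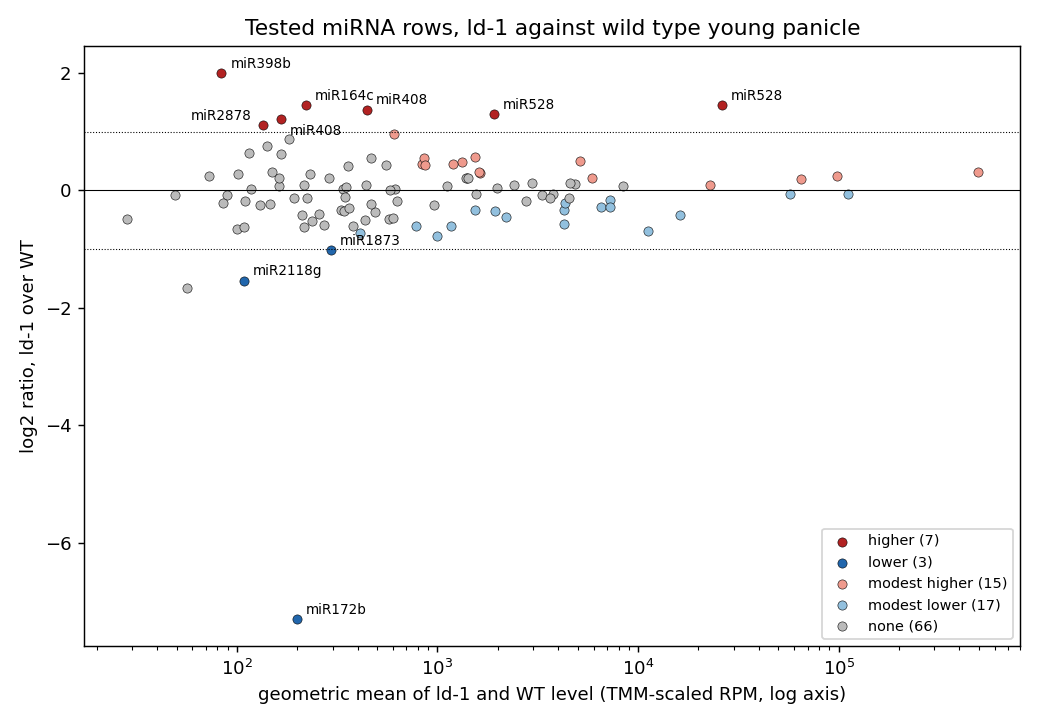
Each point is 1 tested row, with the geometric mean of its ld-1 and wild type level (TMM-scaled RPM, log axis) across and its log2 ratio of ld-1 over wild type upward; colours give the call and dotted lines mark 2-fold. miR172b at -7.30 stands far below every other drawn row, modest shifts (pale colours) lie among abundant rows, and miR1861b, with 0 reads in ld-1, cannot be drawn.

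Choice of scaling bears directly on shifts of this size. Counted as RPM of all miRNA reads, the median of the tested rows moved by -0.19, the largest shift among the 6 scalings tried. Over those scalings, 17 rows changed sign. Of the modest shifts, 5 of 15 higher rows and 14 of 17 lower rows kept an interval excluding 1 under each of the 6. Relative to the main scaling, the others moved the median by -0.19 to 0.03, with the larger moves downward. A lower row therefore keeps an excluded 1 more easily than a higher one.

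Summed by family number, 60 families had 30 or more reads, 27 of them above 0 and 33 below, with a median log2 ratio of -0.07. At 2-fold, 4 families (6.67%) were called higher and 2 (3.33%) lower. The families called higher were miR398, miR528, miR408 and miR2878, and those called lower were miR1861 and miR1873. Without their ld-1 reads the miR398 and miR2878 families would not reach the read minimum, nor would miR1861 without its wild type reads. Those families had to be high in that library to be tested. The calls of miR164c, miR2118g and miR172b did not carry over to their families, in which other rows held most reads.

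The 18 families with 1000 or more reads over both libraries held 96.9% of the reads in ld-1 and 96.6% in wild type. Of these, 1 (miR528) was past 2-fold, 5 were modestly higher, 11 were modestly lower and 1 (miR390) had an interval including 1. Across all 60 families 18.3% were modestly higher and 20% modestly lower, and the abundant ones have the narrowest intervals. The interval excluded 1 under each of the 6 scalings in 3 of the 5 higher families (miR159, miR167 and miR319). It did so in 9 of the 11 lower ones (miR535, miR172, miR168, miR444, miR162, miR394, miR164, miR396 and miR2118). The scalings tried moved ratios mostly downward, which makes this easier for lower families.

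**Figure D2:**
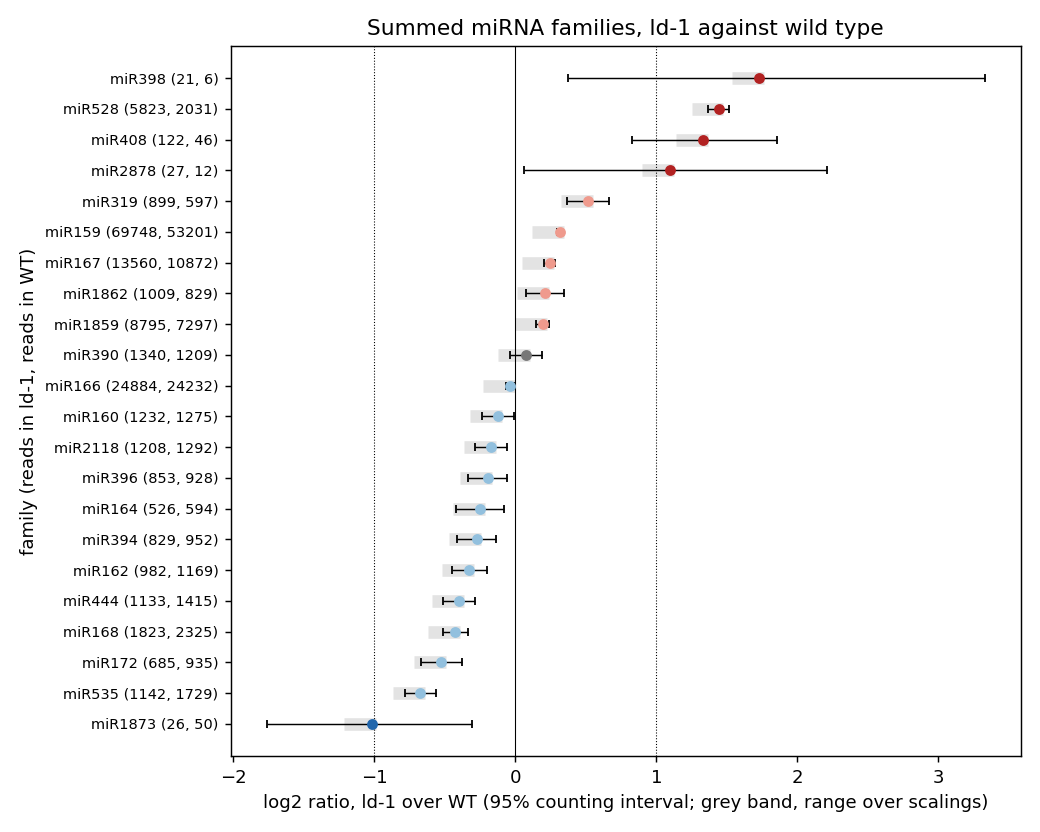
Log2 ratio of ld-1 over wild type for each summed family that was abundant or called, with its 95% counting interval (black), the range over 6 scalings (grey band) and the reads of ld-1 and wild type in brackets; miR1861, with 0 reads in ld-1, is not drawn. Between the copper families at the top and miR1873 at the bottom, the abundant families run from miR319 at 0.51 to miR535 at -0.67.

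By share of all miRNA reads, which needs no further scaling, a few families account for most of the change. The miR159 family, which targets GAMYB factors of anther and aleurone development, took 49.5% of the reads in ld-1 (49.3% to 49.8%) and 45.5% in wild type (45.3% to 45.8%), a gain of 3.99 percentage points. On the scaled level it was 1.24-fold higher (log2 0.31, 0.30 to 0.33). The miR528 family took 4.14% of the reads in ld-1 and 1.74% in wild type, a gain of 2.40 points. The miR166 family, which targets HD-ZIP III factors of leaf and meristem polarity, took 17.7% in ld-1 and 20.7% in wild type, a difference of -3.07 points. Its scaled level was near even (24884 reads in ld-1 and 24232 in wild type, log2 -0.04, -0.06 to -0.01), and it ranged from -0.23 to -0.004 over the scalings. The single miR1859 row took 6.25% of the reads in both libraries (8795 in ld-1 and 7297 in wild type), so its scaled log2 ratio of 0.19 (0.15 to 0.24) is that of the scaling itself. With RPM of all miRNA reads it was -7.6e-05.

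Among families that act through SPL factors, which promote phase change and set panicle branching, miR535 stood lowest. Its family had 1142 reads in ld-1 and 1729 in wild type, 1.60-fold lower (log2 -0.67, -0.78 to -0.57). The miR529a row had 216 reads in ld-1 and 262 in wild type (log2 -0.35, -0.62 to -0.09). The row shared by miR156a to miR156j had 464 reads in ld-1 and 458 in wild type, with an interval that included 0 (log2 -0.06, -0.25 to 0.13). Of the 4 tested rows in this list 2 were modestly lower, against 15.6% of all rows, and none was past 2-fold, with a list median of -0.21 against -0.06 over all tested rows.

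The GAMYB and TCP list held 4 tested rows, all above 0 (53 of all 109 rows were), with 3 modestly higher, against 13.8% of all rows, and a median of 0.41. The miR319 family, which targets TCP factors of organ growth, had 899 reads in ld-1 and 597 in wild type, 1.43-fold higher (log2 0.51, 0.36 to 0.67). Its more abundant row miR319b had 769 reads in ld-1 and 513 in wild type. The miR319a row had 130 and 84 reads (log2 0.55, 0.15 to 0.97), close to miR319b at 0.51. It lies 13 edits from miR319b and has another seed (GCTGCCG, against TGGACTG). It enters the list by family number, and whether it targets TCP transcripts was not tested. The rare miR159f row had 187 reads in ld-1 and 154 in wild type, with an interval that included 0 (log2 0.20, -0.11 to 0.52). Since miR159f is near-identical to the main miR159 row, the 4 rows are not all separate observations.

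Of the families that feed back on the miRNA machinery 4 rows were tested, and 4 lay below 0, against 56 of all 109 tested rows. Modestly lower were 3 of them, against 15.6% of all rows, and the list median was -0.43. The miR168a rows are opposite strands and the miR162 rows are near-identical, so the 4 are not separate observations. The rarer miR168a sequence did not pass (61 reads in ld-1 and 81 in wild type, log2 -0.49, -0.99 to 0.01). The miR168 family, which targets AGO1, had 1823 reads in ld-1 and 2325 in wild type (log2 -0.43, -0.52 to -0.34). The miR162 family, which targets DCL1, had 982 and 1169 reads (log2 -0.33, -0.45 to -0.20). Its rows were alike, with miR162a at -0.29 (745 reads in ld-1 and 863 in wild type) and miR162b at -0.44 (237 and 306 reads).

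**Figure D3:**
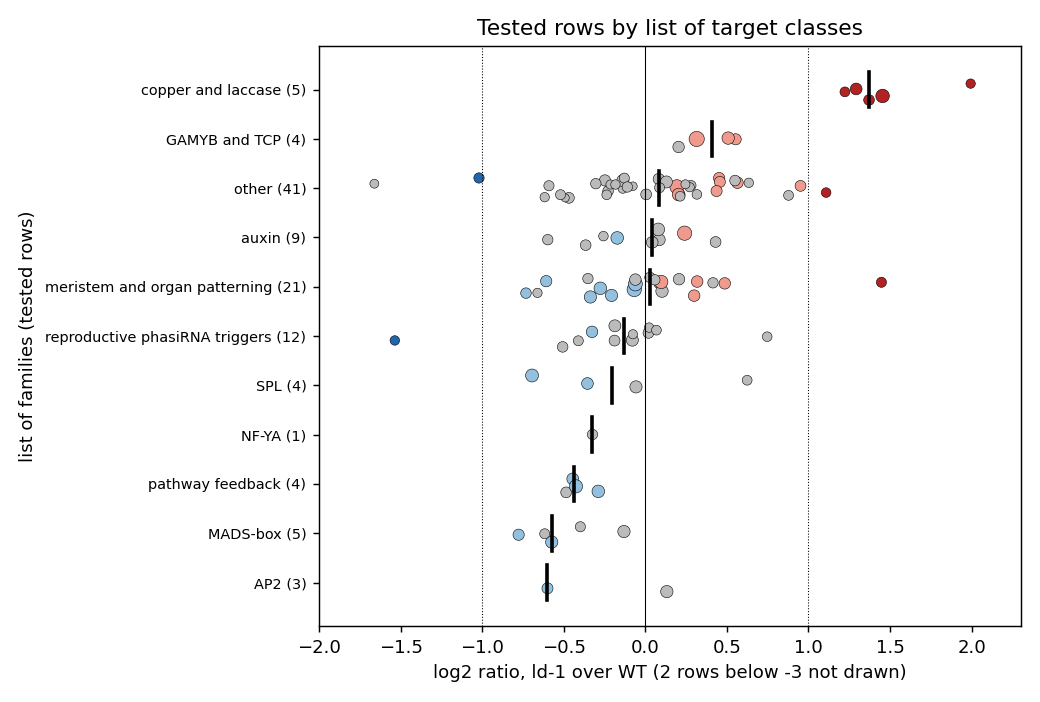
Each point is 1 tested row at its log2 ratio of ld-1 over wild type, by list of families, with point area growing with reads and colours as called (dark, past 2-fold; pale, modest; grey, interval includes 0); black bars are list medians, and miR172b and miR1861b fall outside the axis. The 5 copper and laccase rows lie past 1, whereas pathway feedback and MADS-box rows lie below 0.

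The auxin list was mixed, with 9 tested rows of which 1 was modestly higher and 1 modestly lower (13.8% and 15.6% of all rows), and its median was 0.04, or -0.15 with RPM of all miRNA reads. The miR167a//miR167b//miR167c row, which targets ARF factors of floral organs, had 13467 reads in ld-1 and 10811 in wild type (log2 0.24, 0.20 to 0.28). The miR160e row, which targets repressing ARF factors, had 857 reads in ld-1 and 916 in wild type (log2 -0.17, -0.31 to -0.04). Of the miR390 sequences, which start the TAS3 small RNA pathway, the more abundant had 1086 reads in ld-1 and 975 in wild type (log2 0.08, -0.05 to 0.21).

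In the meristem and organ patterning list, 1 of 21 tested rows was called higher, 4 were modestly higher and 7 modestly lower, against 6.42%, 13.8% and 15.6% of all rows. The list median was 0.03, or -0.17 with RPM of all miRNA reads. The modestly higher rows were miR166a//miR166e, miR166k, miR171c and miR166k//miR166l. Only the last carries the seed of the main row of its family, and its sign turned with RPM of all miRNA reads (-0.096). The miR394 row, which targets an F-box gene of meristem maintenance in Arabidopsis, had 829 reads in ld-1 and 952 in wild type (log2 -0.28, -0.41 to -0.14). The miR164 family, which targets NAC factors of organ boundaries, held rows that went apart. Its main row, miR164a//miR164b//miR164f, had 480 reads in ld-1 and 575 in wild type (log2 -0.34, -0.51 to -0.16), and miR164c had 46 and 16 (log2 1.45, 0.60 to 2.37). The change from the main row to miR164c is C14T, counted from the 5′ end. Of the reads of this pair, miR164c took 8.75% in ld-1 and 2.71% in wild type, a log2 odds ratio of 1.78 (0.91 to 2.72) that no scaling can alter.

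A similar division was seen in the miR396 family, which targets GRF factors of cell proliferation. The row miR396a//miR396b had 119 reads in ld-1 and 172 in wild type (log2 -0.61, -0.96 to -0.26), miR396c had 505 and 553 (log2 -0.21, -0.38 to -0.03), and miR396e had 191 and 157 (log2 0.21, -0.11 to 0.52). Of the reads of miR396e and miR396a//miR396b, the second took 38.4% in ld-1 and 52.3% in wild type (log2 odds ratio -0.81, -1.29 to -0.34). The rule by which the authors assigned reads to such near copies is not stated. Among the 86 pairs of near-identical tested rows within families the odds ratio interval excluded 1 in 14, which came from 5 of 12 families, and the pairs share rows, so they are not separate observations.

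The miR444 family of monocots, which targets MADS-box factors, had 1133 reads in ld-1 and 1415 in wild type (log2 -0.40, -0.51 to -0.28), with 5 of 5 tested rows below 0, against 56 of 109 overall. The interval excluded 0 in 2 of the 5, against 39.4% of all rows in either direction. Both were modestly lower, against 15.6% of all rows. Some of the 5 rows overlap, are near-identical or are opposite strands, so they are not all separate observations. The shift was uneven among the rows. Under the shared name miR444b//miR444c stand 2 overlapping sequences, shown because the start of the downstream one is the end of the other, over 15 bases.
miR444b//miR444c, upstream: tGCAGTTGttgtctcaagctt
miR444b//miR444c, downstream: tGTTGTCTcaagcttgctgcc
miR444d: tTGTGGCTttcttgcaagttg
The upstream sequence had 542 reads in ld-1 and 563 in wild type (log2 -0.13, -0.30 to 0.04), and the downstream one had 442 and 624 (log2 -0.57, -0.75 to -0.40). The downstream sequence took 44.9% of their reads in ld-1 and 52.6% in wild type (log2 odds ratio -0.44, -0.69 to -0.19). The miR444d row was lowest, with 96 reads in ld-1 and 156 in wild type (log2 -0.78, -1.16 to -0.40).

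The copper and laccase list held 5 tested rows. One of them, miR398b, reached the read minimum only through its ld-1 reads and so had to be high to be tested. The other 4, both sequences of miR528 and both of miR408, were each called higher, against 6.42% of all tested rows, a share that includes the copper rows. These 4 are opposite strands of the miR528 and miR408 duplexes, so they are not separate observations. By family, miR528, a monocot miRNA that targets copper proteins including an ascorbate oxidase in rice, was 2.72-fold higher (5823 reads in ld-1 and 2031 in wild type). The miR408 family, which targets plantacyanins and laccases, had 122 reads in ld-1 and 46 in wild type and was 2.52-fold higher (log2 1.33, 0.83 to 1.85). The miR398 family, which targets copper/zinc superoxide dismutases, had 21 and 6 reads (log2 1.73, 0.37 to 3.33). How each pair was divided is given with the strand pairs. The miR398b call rests on 5 reads in wild type.

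The reproductive phasiRNA triggers, which mark young anthers and so bear on the labelled tissue, were present in both libraries through miR2118, whereas miR2275 had 0 reads in ld-1 and 1 in wild type. Its 12 rows summed to 1208 reads in ld-1 and 1292 in wild type (log2 -0.17, -0.29 to -0.06). The most abundant, miR2118h//miR2118k, had 408 and 409 reads. The miR2118g row had 8 reads in ld-1 and 22 in wild type (log2 -1.54, -2.91 to -0.31). It differs by G6A from the row of miR2118f, which had 327 and 353 reads, and their log2 odds ratio was -1.35 (-2.75 to -0.10). Among the 12 tested rows miR2118g was the 1 called lower, against 3.67% of all rows. The interval excluded 0 in 2 of the 12, against 39.4% of all rows.

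Of rice miRNAs outside these lists, 41 rows were tested, with 1 called higher, 2 called lower, 7 modestly higher and none modestly lower. Over all 109 rows the shares of these classes were 6.42%, 3.67%, 13.8% and 15.6%. The row of miR1861b and its shared copies had 0 reads in ld-1 and 17 in wild type. A count of 0 in ld-1 allows up to 23.8 RPM by a floor of 3 counts, and the upper 95% limit of the log2 ratio, which takes in the error of both counts, was -2.12. The whole miR1861 family, of 3 rows, had 0 reads in ld-1 and 19 in wild type, and its log2 ratio had an upper 95% limit of -2.30. The miR1873 row had 26 reads in ld-1 and 50 in wild type, and its value of -1.02 (-1.76 to -0.31) lay just past the threshold. Just short of it on the other side was miR1871, with 106 reads in ld-1 and 52 in wild type (log2 0.95, 0.46 to 1.46). The miR1850 row had 237 and 152 reads (log2 0.56, 0.27 to 0.87). Both miR1871 and miR1850 kept an interval excluding 1 under the 6 scalings. The miR2878 row had 25 reads in ld-1 and 11 in wild type (log2 1.11, 0.03 to 2.28), and with RPM of all miRNA reads (0.91) it was no longer called. Of families tied to nutrition, miR395, miR399 and miR827 together had 17 reads in ld-1 and 5 in wild type, and none of their rows reached the read minimum. The miR169e row, which targets NF-YA factors, had 37 and 44 reads. Among other abundant rows outside the lists, miR1862d was modestly higher, with 794 reads in ld-1 and 654 in wild type (log2 0.20, 0.05 to 0.36). The intervals included 0 for the next: miR1876 had 392 and 340 (log2 0.13, -0.08 to 0.34), and miR5144 had 437 and 456 (log2 -0.14, -0.33 to 0.06).

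Strand pairs give a measure free of scaling, since both rows come from the same library. There were 13 pairs of tested rows that share a name and come from opposite strands, by at most 8 edits from the reverse complement. The share of the second row differed beyond counting error in 4. Among all pairs of tested rows within families, the odds ratio interval excluded 1 in 6 of 20 from opposite strands, these 13 included. It did so in 14 of 86 near-identical pairs, 1 of 3 overlapping pairs and 9 of 47 others. A row of shared copies can hold reads of several precursors, so a share need not be that of 1 duplex. The row of miR171b stands in several of the 13 pairs. The pairs that differed are shown with their second rows.
miR535, second sequence: gTGCTTTCtcccgttgtcact
miR166a//miR166e: gGAATGTTgtctggttcaagg
miR166e: tCGAACCAggcttcattcccc
miR171b and its shared copies: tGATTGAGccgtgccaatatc
miR171c: gGATATTGgtgcggttcaatc
In miR535 the second sequence had 26 reads in ld-1 and 16 in wild type, while the first had 1116 and 1713. Its share was 2.28% in ld-1 and 0.925% in wild type, a log2 odds ratio of 1.32 (0.36 to 2.32). In miR171, which targets GRAS factors, miR171c had 198 reads in ld-1 and 134 in wild type and the row of miR171b had 191 and 189. The miR171c share was 50.9% in ld-1 (45.8% to 56.0%) and 41.5% in wild type (36.1% to 47.1%).

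The second sequence of miR172d, of the strand opposite to miR172a//miR172d, had 80 reads in ld-1 and 115 in wild type (log2 -0.60, -1.03 to -0.18). Its share of the pair was 11.7% in ld-1 (9.40% to 14.4%) and 18.1% in wild type (15.1% to 21.3%). It lies 5 edits from the reverse complement of miR172a//miR172d and 4 from that of miR172b, so the precursor of each of its reads cannot be told from the table. For miR166e, which differs from the main miR166 row by G4A, there were 40 reads in ld-1 and 63 in wild type (log2 -0.73, -1.34 to -0.14). Its share beside miR166a//miR166e was 15.0% in ld-1 (10.9% to 19.8%) and 26.5% in wild type (21.0% to 32.6%).

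The other 9 pairs had odds ratio intervals that included 1. In miR528 the second sequence took 6.47% in ld-1 (5.86% to 7.14%) and 7.19% in wild type (6.10% to 8.40%), a log2 odds ratio of -0.16 (-0.45 to 0.13). In miR408 it took 26.2% in ld-1 and 28.3% in wild type (log2 odds ratio -0.15, -1.32 to 1.08). In miR168a it took 3.35% and 3.48% (log2 odds ratio -0.06, -0.57 to 0.45). In miR390 it took 19.0% in ld-1 and 19.4% in wild type (log2 odds ratio -0.04, -0.33 to 0.26).

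**Figure D4:**
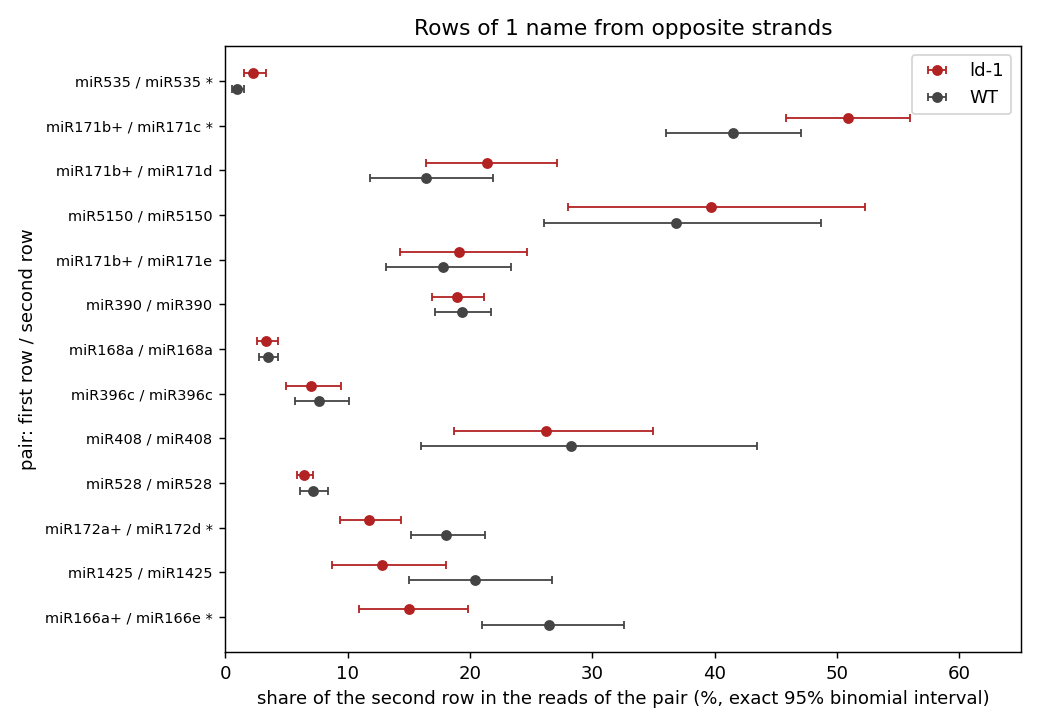
Share (%) of the second row, the one with fewer reads over both libraries, in the reads of each same-name pair from opposite strands, in ld-1 (red) and wild type (dark grey) with exact 95% binomial intervals; an asterisk marks the 4 pairs whose odds ratio interval excludes 1, and a plus sign stands for shared copies. The miR535 and miR171c shares are higher in ld-1, the miR172d and miR166e shares lower.

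The miR166 family also divided by strand. Its tested rows with the seed CGGACCA, the strand that targets HD-ZIP III transcripts, summed to 23644 reads in ld-1 and 23159 in wild type (log2 -0.05, -0.07 to -0.02). The rows with the seed GAATGTT of the other strand summed to 963 and 828 reads (log2 0.14, 0.01 to 0.28), a ratio that was -0.05 with RPM of all miRNA reads. Within the first class, miR166a and its shared copies had 13632 reads in ld-1 and 13554 in wild type (log2 -0.07), miR166g//miR166h had 7020 and 6946 (log2 -0.06), and miR166k//miR166l had 2982 and 2644 (log2 0.10, 0.02 to 0.17), a sign that turned with RPM of all miRNA reads.

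Sorted by length, shares of the reads differed by less than 1 percentage point. Rows of 21 nt, the usual product of DCL1, took 89.2% of the reads in ld-1 (89.0% to 89.4%) and 88.6% in wild type (88.4% to 88.7%). The 20-nt rows took 1.87% in ld-1 (1.80% to 1.94%) and 2.17% in wild type (2.09% to 2.26%), so that in these length classes the intervals do not overlap. The 22-nt rows took 7.12% in ld-1 (6.99% to 7.26%) and 7.39% in wild type (7.24% to 7.54%). The 24-nt rows, a length otherwise typical of heterochromatic small RNAs, took 1.80% in ld-1 (1.74% to 1.87%) and 1.88% in wild type (1.81% to 1.96%). By row, 14 of 24 tested 24-nt rows lay above 0, with a median log2 ratio of 0.09 that turned to -0.11 with RPM of all miRNA reads. A first base of U, the base AGO1 prefers, was carried by 95.1% of the reads in ld-1 and 94.7% in wild type. The miR159 family weighs on the 21-nt and first-base shares. Without it, the scaled log2 ratio was 0.08 for 21-nt reads (0.06 to 0.09) and 0.08 for reads starting with U (0.07 to 0.10). All reads without miR159 stood at 0.08 too (0.07 to 0.10). Of those 71059 reads in ld-1, 55849 were of 21 nt and 64358 started with U, so the likeness was largely given beforehand. With miR528 left out as well, all reads stood at 0.007 (-0.009 to 0.02). Whether the gains were particular to the length or first base was not tested.

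At the read minimum, the rows just inside were miR166m (10 reads in ld-1 and 15 in wild type) and miR5513 (14 and 11), and the row just outside was miR5507 (8 and 1). Of the 109 tested rows, 14 had under 30 reads over ld-1 and wild type and were kept through their ld-2 reads, among them miR398b and miR1861b. Of the called rows, miR398b and miR2878 would not reach the minimum without their ld-1 reads, nor miR172b and miR1861b without their wild type reads. Reads in ld-1 alone were seen for 35 rows, with at most 6 reads, and reads in wild type alone for 39 rows, with at most 17.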

How the data were processed

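Small RNA of young panicles was sequenced from 1 library each of ld-1, ld-2 and wild type rice. Per the labels' protocols, gel-purified RNA of 20 to 30 nt entered the NEXTFlex kit (v3) and was read on a MiSeq instrument. Per the file headers, the authors deposited raw read counts, and the table gives them for each mature sequence. Trimming, mapping, mismatches and the miRNA release are not stated in the labels or the file.

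A row or family was tested with at least 30 reads summed over the 3 libraries. TMM factors (trimmed mean of M values) came from edgeR 4.0.16 under R 4.3.3 and the tested rows, with factors of 0.894 for ld-1, 1.09 for ld-2 and 1.02 for wild type. The log2 ratio of ld-1 over wild type carries an exact 95% Clopper-Pearson interval given both counts. Shares carry exact 95% binomial intervals, and a pair of rows was compared by the conditional odds ratio, which needs no scaling. Intervals and floors cover counting error only, since reads are not independent molecules. With 1 library per genotype no p-value was computed. Simulated counts at these depths were used to test the interval and the call rule. Rows from opposite strands were defined by at most 8 edits between 1 sequence and the reverse complement of the other, and near-identical rows by at most 3 edits. Tools were pandas 2.3.3, scipy 1.17.1, numpy 2.4.6 and matplotlib 3.10.9 under Python 3.11.15.

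The rows named were the miR172 rows, the rows called 2-fold higher or lower, the 10 most abundant rows, the most abundant row of each family with 500 or more reads over ld-1 and wild type, and, in the 5 families with the widest range of ratios, the rows with 100 or more such reads. Other rows, the pairs and the sequence classes were picked once their values had been seen. The comparison and its lists of families were chosen with earlier results of these data known. Alternatives were 5 other scalings, among them DESeq2 1.42.0 size factors and RPM of all miRNA reads, other read minimums, a 99% interval, a 1.5-fold threshold, 300 reads as the limit for an abundant family, the median of the tested miR172 rows, and 0.5 reads added to each count. TMM over every row of the table, and a minimum of 30 reads over ld-1 and wild type alone, were added after seeing the data.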

Additional observations from a re-analysis of the deposited data

Results flagged for a closer look

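Rows under the read minimum were not compared in the report, and 7 of 151 such rows with a read in ld-1 or wild type met the 2-fold rule on the higher side in ld-1, with 3 on the lower side. The 7 had few reads. They were miR11339 with 13 reads in ld-1 and 2 in wild type, miR399d of the phosphate response with 10 and 1, miR1875 with 9 and 1, and the 23-nt row of miR167c with 9 and 1. The others were miR1857 with 8 reads in ld-1 and 1 in wild type, miR5507 with 8 and 1, and the second sequence of miR160f with 6 and 0. Their log2 ratios ran from 2.62 (miR11339, 0.48 to 5.81) to 3.25 (miR399d, 0.43 to 8.69), except miR160f, which has no ratio against 0 reads. The 3 lower rows were miR1874 with 1 read in ld-1 and 16 in wild type, miR160c, second sequence, with 3 and 15, and miR5802 with 0 and 6. Summed over rows under the minimum, ld-1 had 366 reads and wild type 355.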

How the results depend on the processing

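The miR172b ratio kept its sign and size class under each alternative run, from -7.49 to -6.98. The miR172 family ratio of -0.52 became -0.72 with RPM of all miRNA reads. With that scaling the rows modestly higher numbered 5 and those modestly lower 30, against 15 and 17, and the abundant families modestly higher numbered 3, against 5. Library sizes without the 5 most abundant rows left 9 rows modestly higher. TMM over all rows, added after seeing the data, left 1 family lower (miR1861), as miR1873 at -0.99 no longer reached 2-fold. With no read minimum 14 rows were higher and 7 lower, and 9 families higher and 4 lower. At 100 summed reads 3 rows were higher and 2 lower, and 2 families higher and 1 lower, since fewer were tested. A 1.5-fold threshold gave 9 rows lower. With a 99% interval miR2118g, miR2878 and the second sequence of miR408 lost their calls. Among modest shifts, signs turned with RPM of all miRNA reads for miR166k//miR166l (-0.096), and for the miR1859 row and family (-7.6e-05). Signs also turned for rows whose interval included 0, among them miR172a//miR172d (-0.06) and the more abundant miR390 sequence (-0.11). A minimum of 30 reads over ld-1 and wild type left out miR398b and miR1861b. No paired analysis was possible because each genotype has 1 library. Depth limits rows with under 50 reads, where a 2-fold difference often lies within counting error.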
